A study of Mus musculus with 6 samples.

Results

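The genes described here are 34 transcripts of megakaryocytes and platelets, the proteins that platelets store, display or signal with, out of 55450 genes counted. They were chosen by symbol from a list drawn from general knowledge, with earlier results of these libraries known, and not by a threshold on these values. All 34 symbols matched 1 gene each in GENCODE release M21 (GRCm38). RNA was sequenced in bulk from sorted LT-HSCs, the hematopoietic stem cells that repopulate marrow long-term. The donors were wild-type C57/Bl6 male mice aged 22 to 24 months, with no treatment named. The cells of both gates were Lin-, Sca1+, cKit+, CD48- and CD150+. CD61High is the 10% of them with the most surface CD61 (integrin beta 3), CD61Low the 10% with the least, and 5000 cells were taken for each of 3 CD61High and 3 CD61Low libraries. Titles number the mice 1 to 3, with 1 library of each gate per mouse, whereas the protocol describes pooled LT-HSCs. If a number stands for a pool or for repeated handling of 1 animal, the p-values measure only the spread between these samples.

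Megakaryocytes make platelets, and they carry the messages of platelet proteins long before platelets form. Alpha-granules hold chemokines and adhesive proteins, dense granules hold small agonists such as serotonin and ADP, and surface receptors for collagen, thrombin, ADP, ATP and thromboxane trigger their release. Some of these genes are also transcribed in LT-HSCs, most of all in stem cells biased toward platelet production and in old animals, while others are known mainly from late megakaryocytes and platelets.

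Between 21354130 and 26398090 reads fell on genes in each library. A count of 0 allows up to 3 reads, or 0.114 to 0.140 CPM (a library's reads on a gene scaled to a common library size), counting error only. LT-HSC markers fixed as a list (Procr, Ly6a, Kit, Slamf1, Hlf, Mecom, Mllt3, Fgd5, Hoxb5 and Ctnnal1) were detected, with a summed level of 1675 to 3022 CPM in CD61High and 1290 to 4025 CPM in CD61Low. They split between the gates: 5 of 10 (Procr, Ly6a, Hlf, Mllt3 and Fgd5) were lower in CD61High in 3 of 3 mice and 1 (Ctnnal1) was higher. With the mouse as a term in edgeR, Procr (log2 fold change -1.25, adjusted p = 0.0436) and Ly6a (-1.34, adjusted p = 0.0446) were called lower. With library sizes alone as the scaling, that fit called 0 genes. Mouse 2 stood apart. Its libraries had the lowest LT-HSC sums (1675 CPM in CD61High and 1290 CPM in CD61Low) and the highest share of counts on 10 neutrophil markers (6.56% and 10.6%), against 0.0393% to 1.96% in the other 4 libraries. All 10 neutrophil markers and 8 of 10 monocyte and macrophage markers were lower in CD61High than in CD61Low in 3 of 3 mice. So were 7 of 10 erythroid, 7 of 10 B lineage, 6 of 10 T and NK and 3 of 10 endothelial markers. Over all genes tested, 24.7% were lower and 20.6% higher in 3 of 3 mice, so the endothelial count is near that share. The summed erythroid markers were higher in CD61High in mouse 3 (log2 ratio 0.14) and the summed endothelial markers in mouse 2 (0.21). Car2 held most of that erythroid sum, with 2450 of 2999 CPM in CD61High and 1825 of 2714 CPM in CD61Low of mouse 3. The sum therefore describes Car2 more than the other erythroid markers. In bulk libraries, fewer cells of a type and less RNA per cell cannot be told apart.

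The members covered a wide range of levels. Compared per length, as CPM per kb of merged exon averaged over the 6 libraries, Tmsb4x was first at 2097 and Slc6a4 last at 0.0474. Tmsb4x encodes thymosin beta 4, an actin-binding peptide of platelets and leukocytes. Behind it came Bin2, a membrane-bending BAR protein (231), Mmrn1, the alpha-granule protein multimerin 1 (181), Gng11, a G protein gamma subunit (137), Angpt1, the Tie2 ligand angiopoietin 1 (127), and Pf4, the chemokine platelet factor 4 (108). Of all neighbours in this order, only Tmsb4x and Bin2 had ranges over the 6 libraries that did not overlap. The other 32 of 33 neighbouring pairs in this order had overlapping ranges. These ranges span both gates and all mice, so overlap leaves the order of neighbours unsettled and does not show equal levels.

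**Figure D1:**
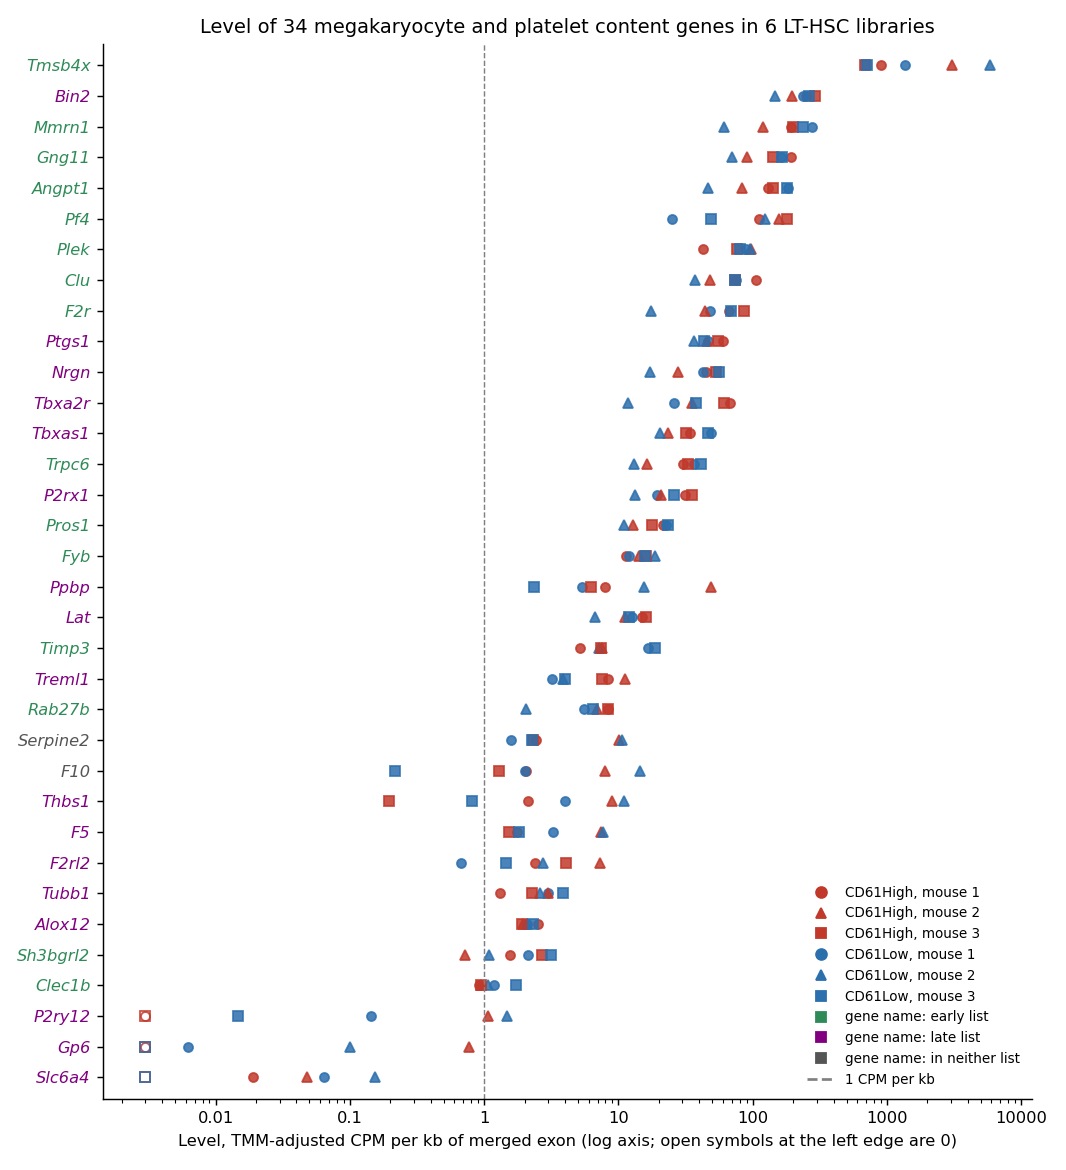
Level of each of the 34 genes in each library, on a log axis in TMM-adjusted CPM per kb of merged exon, ordered by the mean; colour gives the gate, shape the mouse, and the colour of the gene name the list it belongs to. The mean of 31 genes lies at or above 1 CPM per kb, and only P2ry12, Gp6 and Slc6a4 lie below it.

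To set early stem cell transcripts apart from late platelet transcripts, 15 members were put in an early list and 17 in a late list from general knowledge. Serpine2, a protease inhibitor, and F10, coagulation factor X, were put in neither. By level, the early list had a median of 55.4 CPM per kb and the late list 6.37 (means over 6 libraries). A mean of at least 1 CPM per kb was reached by 15 of 15 early genes and by 14 of 17 late genes. Most of the late list was therefore read in these LT-HSC libraries, and several late genes stood among the more abundant ones: Bin2 at 231, Ptgs1 at 47.9, Nrgn at 40.5, Tbxa2r at 39.9 and Tbxas1 at 34.2 CPM per kb. Clec1b, at 1.13, was just above the 1 CPM per kb used to split levels. P2ry12, at 0.450, was under it, with 1.06 and 1.48 in the libraries of mouse 2 and 0 to 0.143 in the others.

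Genes below that level were all from the late list. Slc6a4, the serotonin transporter of the platelet surface membrane, had 2, 5 and 0 reads in CD61High of mice 1, 2 and 3 and 8, 14 and 0 in CD61Low. Gp6, the collagen receptor glycoprotein VI, had 0, 105 and 0 reads in CD61High and 1, 12 and 0 in CD61Low. P2ry12, the ADP receptor blocked by clopidogrel, had 0, 62 and 0 reads in CD61High and 10, 76 and 1 in CD61Low. Outside mouse 2 each of the 3 genes had 0 to 10 reads in a library, and they did not pass the filter on low counts, so that 31 members were tested. In CD61High of mouse 2, where Gp6 had its 105 reads, Ppbp was also at its highest (52.7 CPM), and the neutrophil markers took 6.56% of counts. In CD61Low of mouse 2 these markers took more, 10.6%, while Gp6 had 12 reads and Ppbp 16.8 CPM. Slc6a4 and P2ry12 had their most reads in that CD61Low library, at 14 and 76. The part of neutrophils or other cells in the 3 genes was not tested.

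Between the gates, 0 of the 31 members were called as different by edgeR's quasi-likelihood test at an adjusted p under 0.05, in a fit where 0 of 15610 genes were called (0%). At an unadjusted p under 0.05 there were 2 members, Treml1 higher and Timp3 lower in CD61High, beside 6.55% of all genes (3.56% higher and 3% lower). The estimate was above 0 for 15 of 31 members and for 45.4% of all genes. DESeq2 without a block called 1 member, Treml1, beside 1.52% of its genes (0.828% higher). Blocking on the mouse, edgeR again called 0 of 31 members, and 0.256% of all genes, while 12 members had an unadjusted p under 0.05 (20.8% of all genes), 10 of them higher in CD61High (8.01% of all genes) and 2 lower (12.8%). The median log2 fold change was -0.03 over the members and -0.05 over all genes without the block, and 0.13 and -0.02 with it. DESeq2 with the block called 10 members, 8 higher (Pf4, Ppbp, Treml1, Rab27b, F2r, F2rl2, P2rx1 and Tbxa2r) and 2 lower (Thbs1 and Timp3), beside 10% of all genes (2.92% higher and 7.11% lower). Without mouse 2, edgeR with the block called 3 members, Pf4 and Tbxa2r higher and Timp3 lower, beside 4.77% of all genes (1.85% higher and 2.93% lower). The same fit called 0 members without mouse 1, beside 0 of 15967 genes. Without mouse 3 it also called 0 members, beside 1 gene higher and 6 lower of 16106. Each of these fits rests on only 2 mice.

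**Figure D2:**
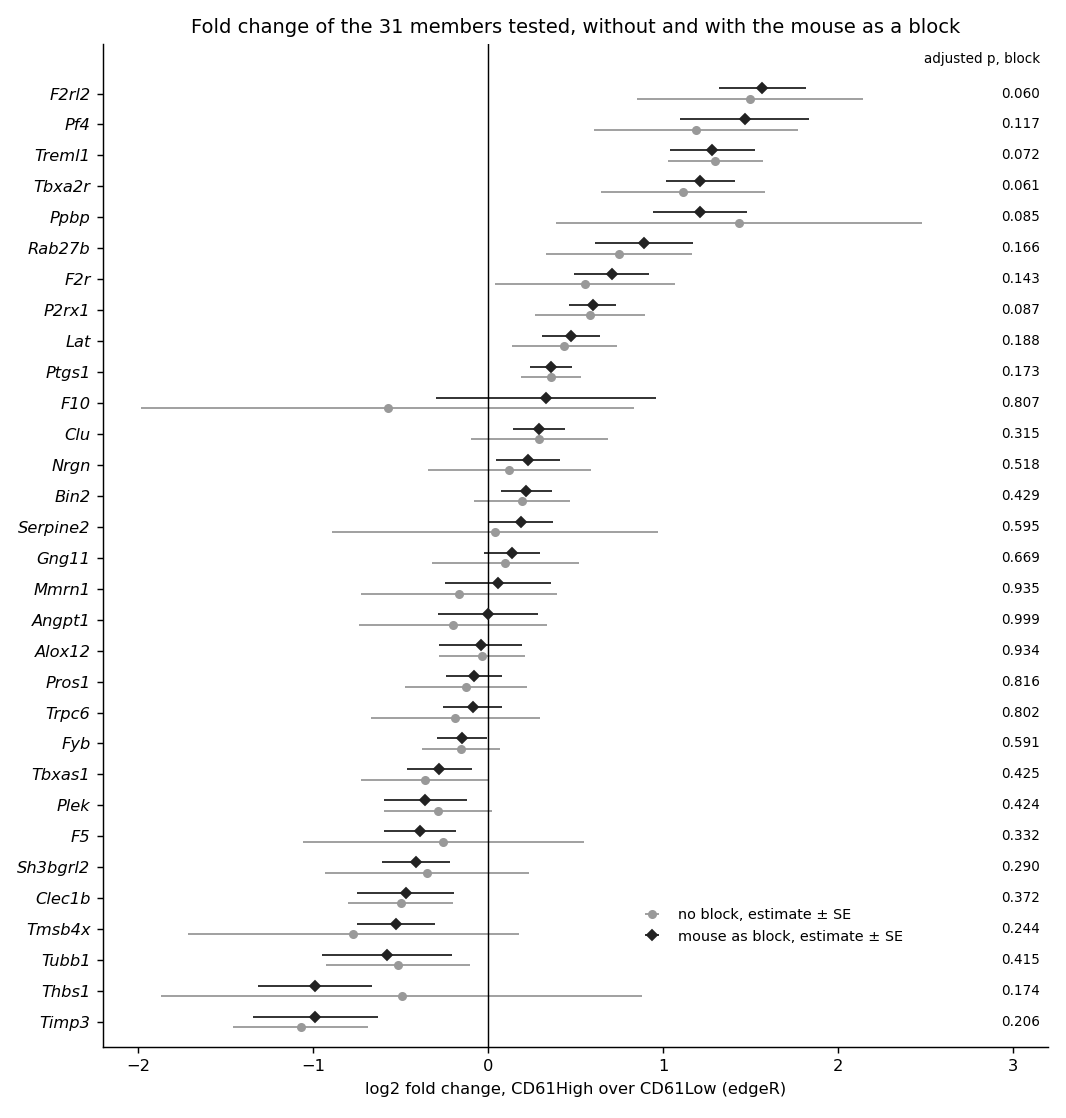
log2 fold change of CD61High over CD61Low with its standard error for the 31 members tested, from edgeR without a block (grey circles) and with the mouse as a block (black diamonds), with the blocked adjusted p at the right. F2rl2 has the highest blocked estimate at 1.57, Timp3 and Thbs1 the lowest at -0.99, and no blocked adjusted p is under 0.05.

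The alpha-granule chemokines are Pf4 and Ppbp. Their genes lie side by side on chromosome 5 of GRCm38, Ppbp at 90768518 to 90770063 and Pf4 at 90772435 to 90773383, on the same strand with 2371 bases between them. Their promoter windows are shown because both genes were higher in CD61High in each mouse. Each window, from RefSeq (GRCm38.p6), runs from 250 bases before to 50 bases after the annotated start, plus strand. Capitals mark matches on either strand to 4 short motifs, and none of the matches shown overlaps another. The GATA core was searched as AGATAA. The ETS core was searched as AGGAAG. The RUNX core was searched as TGTGGT. The core shared by AP-1 and NF-E2 was searched as TGAGTCA.
Ppbp, chr5:90768268-90768567: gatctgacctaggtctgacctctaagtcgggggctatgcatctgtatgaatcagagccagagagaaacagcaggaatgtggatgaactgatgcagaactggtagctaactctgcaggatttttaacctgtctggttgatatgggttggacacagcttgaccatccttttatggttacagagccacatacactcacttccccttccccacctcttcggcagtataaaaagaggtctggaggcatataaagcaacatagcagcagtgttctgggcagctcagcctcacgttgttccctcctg
Pf4, chr5:90772185-90772484: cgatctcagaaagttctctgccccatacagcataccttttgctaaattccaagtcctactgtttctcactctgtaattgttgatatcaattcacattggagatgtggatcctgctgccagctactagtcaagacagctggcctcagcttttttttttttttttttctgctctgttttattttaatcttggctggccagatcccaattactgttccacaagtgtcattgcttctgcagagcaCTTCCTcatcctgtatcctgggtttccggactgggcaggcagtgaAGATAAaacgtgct
The Pf4 window held 1 GATA match, whose first base is 36 bases after the start site, and 1 ETS match at -9. None of the 4 motifs occurred in the Ppbp window. A match describes letters only and is not a bound site.

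Pf4 had 79.9, 114 and 130 CPM in CD61High of mice 1, 2 and 3 and 18.1, 88.7 and 35.5 CPM in CD61Low. It was higher in CD61High in each mouse, but CD61Low of mouse 2 stood above CD61High of mouse 1, so the gates overlapped. Pf4 had a log2 fold change of 1.19 (SE 0.58, adjusted p = 0.763) without the block and 1.47 (SE 0.37, adjusted p = 0.117) with it. Without mouse 2, the blocked estimate was 1.99 (SE 0.14, adjusted p = 0.0160). Pf4 was not called with the block when mouse 1 or mouse 3 was left out instead. Ppbp, pro-platelet basic protein, whose product is cut to a neutrophil-attracting chemokine, had 8.56, 52.7 and 6.72 CPM in CD61High and 5.84, 16.8 and 2.53 CPM in CD61Low. Its highest values were both in mouse 2. Ppbp had a log2 fold change of 1.43 (SE 1.05, adjusted p = 0.877), or 1.21 (SE 0.27, adjusted p = 0.0847) with the block. Its differences within a mouse were 0.55, 1.64 and 1.38. Without a block, the estimate for Ppbp was -0.13 when CD61High of mouse 2 was left out and its CD61Low partner kept.

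Among the surface receptors of the immunoglobulin and C-type lectin families, Treml1 and Clec1b had opposite signs. Treml1 (chromosome 17, 48359916 to 48367176) encodes TLT-1, an alpha-granule membrane receptor that appears on activated platelets. It had 11.8, 15.7 and 10.6 CPM in CD61High and 4.52, 5.39 and 5.59 CPM in CD61Low of mice 1, 2 and 3. Every CD61High value lay above every CD61Low value, as it did for 9.15% of the genes with a mean of at least 1 CPM. Its log2 fold change was 1.30 (SE 0.27, adjusted p = 0.652), or 1.28 (SE 0.25, adjusted p = 0.0721) with the block, and 1.12 to 1.47 over all 20 alternative fits. DESeq2 without a block gave 1.28 at an adjusted p of 0.00403. The Treml1 window, shown because this gene had the lowest unadjusted p among the members, held none of the 4 motifs.
Treml1, chr17:48359666-48359965: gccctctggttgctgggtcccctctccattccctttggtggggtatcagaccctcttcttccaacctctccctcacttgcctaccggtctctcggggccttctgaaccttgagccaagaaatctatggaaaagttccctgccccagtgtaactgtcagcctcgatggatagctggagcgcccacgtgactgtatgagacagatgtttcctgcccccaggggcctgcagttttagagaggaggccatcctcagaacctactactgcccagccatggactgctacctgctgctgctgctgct
Clec1b encodes CLEC-2, the podoplanin receptor. It had 4.69, 4.80 and 4.80 CPM in CD61High and 6.02, 5.44 and 8.75 CPM in CD61Low. All CD61High values lay below all CD61Low values, which held for 5.62% of genes. The log2 fold change was -0.50 (SE 0.30, adjusted p = 0.832), or -0.47 (SE 0.28, adjusted p = 0.372) with the block.

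By count, receptors and channels for platelet agonists were the group with the most members higher in CD61High in 3 of 3 mice, though groups differ in size. Of 7 members, 5 were tested and 4 of these were higher in 3 of 3 mice, against 20.6% of all genes tested, too few genes to set the group apart. Their median log2 fold change was 0.58, or 0.70 with the block. P2ry12 and Slc6a4 were not tested and, with few reads, were higher in 0 of 3 mice. F2rl2 (chromosome 13, 95696853 to 95702739) encodes PAR3, a thrombin receptor that assists PAR4 on mouse platelets. It had 6.02, 18.1 and 10.2 CPM in CD61High and 1.68, 6.88 and 3.65 CPM in CD61Low. The difference within a mouse was alike in the 3 mice, at log2 1.80, 1.39 and 1.47, while the level was highest in mouse 2. F2rl2 had a log2 fold change of 1.50 (SE 0.65, adjusted p = 0.752), or 1.57 (SE 0.25, adjusted p = 0.0599) with the block, the lowest blocked adjusted p of the members. Its window, shown for that reason and placed by the RefSeq start, held an ETS match at -101 followed directly by a GATA match at -95, and an AP-1 and NF-E2 match at -54.
F2rl2, chr13:95696670-95696969: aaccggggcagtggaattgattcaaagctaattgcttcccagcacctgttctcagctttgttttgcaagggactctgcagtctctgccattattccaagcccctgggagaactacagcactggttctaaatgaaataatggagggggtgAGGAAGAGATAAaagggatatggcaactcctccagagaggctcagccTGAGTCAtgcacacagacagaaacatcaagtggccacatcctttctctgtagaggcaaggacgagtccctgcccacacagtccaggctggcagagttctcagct
F2r, which encodes the thrombin receptor PAR1, lies 78365 bases from F2rl2 on the opposite strand. PAR1 is not a main thrombin receptor of mouse platelets. F2r was far more abundant per length than F2rl2, at 55.4 against 3.10 CPM per kb. It had 223, 148 and 288 CPM in CD61High and 162, 58.8 and 229 CPM in CD61Low, higher in CD61High in each mouse with the gates overlapping. The blocked log2 fold change was 0.70 (SE 0.21, adjusted p = 0.143).

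Over the 28 members with an entry in the promoter table, which gives some genes more than 1 window, the GATA core was in 6 of 29 windows (20.7%, against 11.2% of all 32851 windows). The ETS core was in 12 of 29 (41.4%, against 35.4%), the RUNX core in 4 (13.8%, against 16.8%) and the AP-1 and NF-E2 core in 2 (6.90%, against 5.20%). Pf4, F2rl2, P2rx1, Clec1b, Fyb and Gp6 held the GATA core. Of these, Pf4, F2rl2 and P2rx1 were higher in CD61High in 3 of 3 mice, and Clec1b, Fyb and Gp6 were not. Clu, Rab27b, Gng11, Bin2, Angpt1 and Thbs1 had no entry.

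Tbxa2r (chromosome 10, 81328731 to 81335172) encodes the receptor for thromboxane A2, which amplifies platelet activation. It had 130, 67.4 and 117 CPM in CD61High and 49.8, 22.6 and 72.7 CPM in CD61Low of mice 1, 2 and 3. Only CD61Low of mouse 3 crossed into the CD61High range, above the CD61High value of mouse 2. The log2 fold change was 1.11 (SE 0.47, adjusted p = 0.752), or 1.21 (SE 0.20, adjusted p = 0.0614) with the block, and 1.02 (SE 0.18, adjusted p = 0.0472) with the block and without mouse 2. Tbxa2r was not called with the block when mouse 1 or mouse 3 was left out instead. P2rx1, an ATP-gated calcium channel, had 82.5, 54.5 and 93.4 CPM in CD61High and 50.7, 35.1 and 68.2 CPM in CD61Low. Its differences within a mouse were 0.70, 0.63 and 0.45, and its blocked log2 fold change was 0.60 (SE 0.13, adjusted p = 0.0868). Trpc6, a diacylglycerol-gated cation channel, had 83.0 to 166 CPM in CD61High and 66.0 to 207 CPM in CD61Low, with a log2 fold change of -0.19 (SE 0.48, adjusted p = 0.946).

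**Figure D3:**
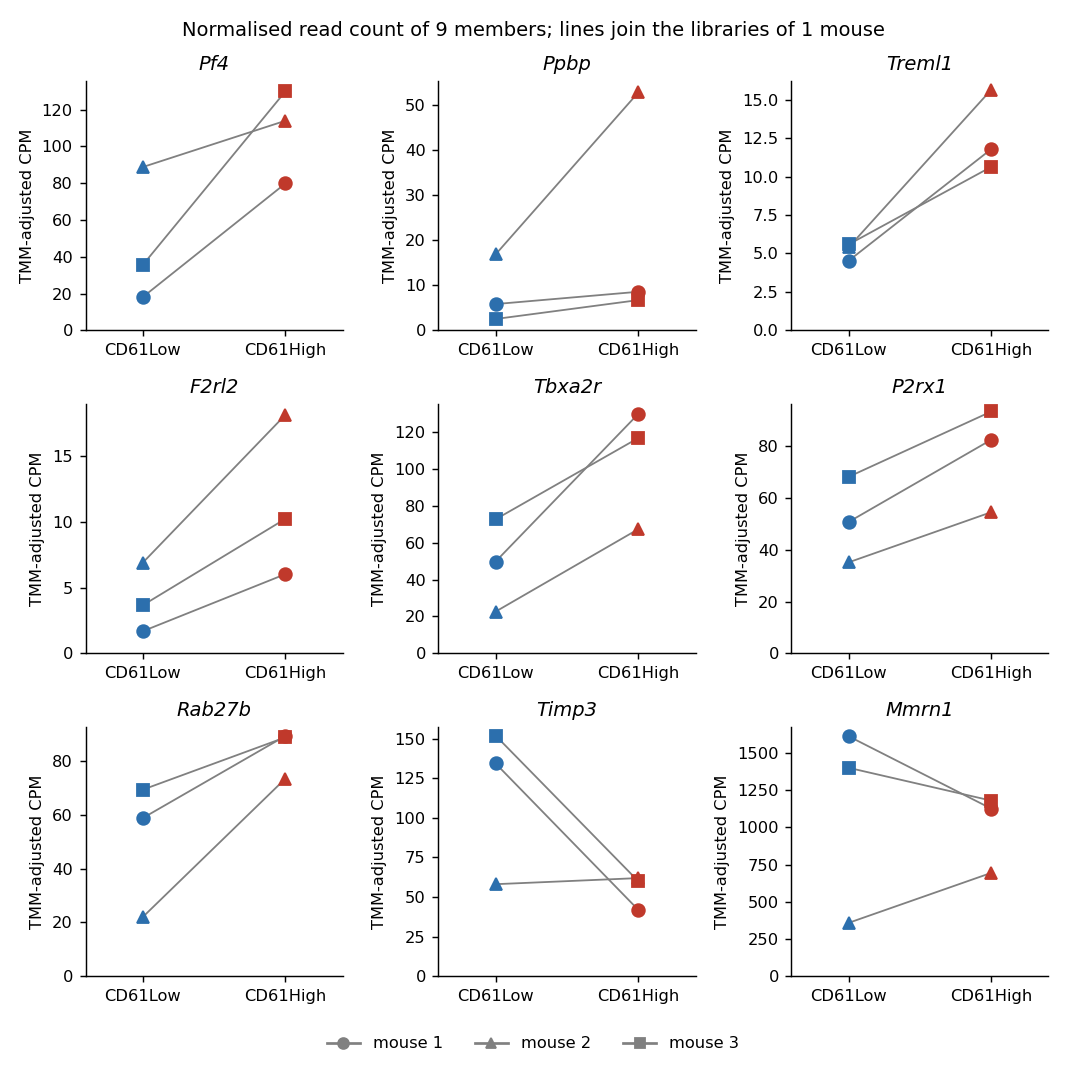
TMM-adjusted CPM of 9 members in CD61Low and CD61High, 1 line per mouse, each axis starting at 0. Lines of Pf4, Ppbp, Treml1, F2rl2, Tbxa2r, P2rx1 and Rab27b go up toward CD61High in 3 of 3 mice, while those of Timp3 and Mmrn1 go down in mice 1 and 3 and up in mouse 2.

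The 3 arachidonate enzymes did not share a direction. Ptgs1, the cyclooxygenase COX-1 that platelets use and aspirin blocks, had 233, 179 and 216 CPM in CD61High and 179, 141 and 169 CPM in CD61Low. Its differences within a mouse were nearly equal, at log2 0.38, 0.34 and 0.35, although CD61High of mouse 2 lay just under CD61Low of mouse 1. The blocked log2 fold change was 0.36 (SE 0.12, adjusted p = 0.173). Tbxas1, thromboxane synthase, acts on the product of COX-1 and had 313, 214 and 291 CPM in CD61High and 445, 185 and 421 CPM in CD61Low. It was lower in CD61High in mice 1 and 3 and higher in mouse 2, with a blocked estimate of -0.28 (SE 0.18, adjusted p = 0.425). Alox12, platelet 12-lipoxygenase, was level, with means of 8.64 ± 1.39 CPM in CD61High against 8.85 ± 0.558 CPM in CD61Low (SD, n = 3 each). Within the thromboxane branch, then, the receptor and COX-1 were higher in CD61High in 3 of 3 mice and the synthase was not.

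Signalling proteins inside the cell had 7 members, 2 of them higher in 3 of 3 mice and 1 lower. Over all genes tested, 20.6% were higher and 24.7% lower in 3 of 3 mice. The median log2 fold change of the group was 0.10, or 0.13 with the block. Lat, the adaptor that carries the signal of glycoprotein VI and of the T cell receptor, had 41.7, 31.2 and 44.8 CPM in CD61High and 35.2, 18.5 and 33.4 CPM in CD61Low (blocked log2 fold change 0.47, SE 0.17, adjusted p = 0.188). Bin2 was higher in each mouse by only 0.05, 0.44 and 0.16. Sh3bgrl2, a small protein related to glutaredoxins, was lower in each mouse, by log2 values of -0.45, -0.58 and -0.21. Plek, the protein kinase C substrate pleckstrin, had 191, 434 and 345 CPM in CD61High and 399, 425 and 360 CPM in CD61Low, so that the low value was that of CD61High of mouse 1. Fyb, an adaptor that links receptors to integrin activation, had a blocked estimate of -0.15 (SE 0.14), Nrgn, a calmodulin-binding protein, 0.23 (SE 0.18) and Gng11 0.13 (SE 0.16), with adjusted p of 0.591, 0.518 and 0.669. In Fyb, 10.2% of the exon sequence is shared with overlapping genes.

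None of the 5 adhesive and other secreted proteins was higher in all 3 mice, against 20.6% of all genes tested, again too few genes to set the group apart. Mmrn1 had 1126, 695 and 1180 CPM in CD61High and 1612, 359 and 1400 CPM in CD61Low of mice 1, 2 and 3. Angpt1 had the same signs, with 682, 430 and 734 CPM against 949, 240 and 933 CPM. Both were lower in CD61High in mice 1 and 3 and higher in mouse 2, and their blocked log2 fold changes were 0.06 (SE 0.30) and -0.0007 (SE 0.29), with adjusted p of 0.935 and 0.999. Angpt1 shares 14.2% of its exon sequence with Gm17473 on the other strand. Timp3 (chromosome 10, 86300372 to 86349506), a matrix metalloproteinase inhibitor, had 41.9, 62.0 and 59.9 CPM in CD61High and 134, 58.1 and 152 CPM in CD61Low. The log2 fold change of Timp3 was -1.07 (SE 0.39, adjusted p = 0.721), or -0.99 (SE 0.36, adjusted p = 0.206) with the block, and -1.53 (SE 0.15, adjusted p = 0.0195) with the block and without mouse 2. That last value was the lowest of 20 alternative fits, and the highest was -0.63, with the block and without mouse 1. Timp3 lies inside Syn3 on the other strand and shares 21.3% of its exon sequence with it, and the counts do not separate strands. Clu, the secreted chaperone clusterin, had 367, 166 and 253 CPM in CD61High and 259, 127 and 255 CPM in CD61Low (blocked log2 fold change 0.29, SE 0.15, adjusted p = 0.315). Thbs1, thrombospondin 1, had 12.9, 54.0 and 1.18 CPM in CD61High and 24.1, 66.8 and 4.91 CPM in CD61Low. Thbs1 was lower in CD61High in each mouse, yet differed more between mice than between gates, and its blocked estimate was -0.99 (SE 0.32, adjusted p = 0.174). Without a block, the estimate for Thbs1 turned to 0.65 when CD61Low of mouse 2 was left out.

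None of the 4 coagulation genes was higher in 3 of 3 mice, against 20.6% of all genes tested, too few genes to set the group apart. F5, factor V, had 12.99, 54.8 and 11.4 CPM in CD61High and 24.0, 57.3 and 13.4 CPM in CD61Low, lower in CD61High in each mouse, with a blocked estimate of -0.39 (SE 0.21, adjusted p = 0.332), but 0.50 without CD61Low of mouse 2 and without a block. Pros1, the anticoagulant protein S, had 52.7 to 88.4 CPM in CD61High and 45.0 to 95.8 CPM in CD61Low. F10 had 5.59, 21.8 and 3.51 CPM in CD61High and 5.54, 39.8 and 0.596 CPM in CD61Low, and its differences of 0.01, -0.87 and 2.41 had no common sign. Serpine2 had 20.2, 84.3 and 19.3 CPM in CD61High and 13.2, 88.4 and 18.9 CPM in CD61Low. For F5, F10 and Serpine2 the 2 libraries of mouse 2 stood above the other 4.

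The cytoskeleton and granule traffic group split. Rab27b, a small GTPase needed for platelet granule formation and release, had 89.4, 73.5 and 88.8 CPM in CD61High and 58.8, 22.0 and 69.4 CPM in CD61Low. All CD61High values lay above all CD61Low values, with a gap from 69.4 to 73.5 CPM, and the log2 fold change was 0.75 (SE 0.42, adjusted p = 0.813), or 0.89 (SE 0.28, adjusted p = 0.166) with the block. Tubb1, the beta 1 tubulin of the platelet marginal band, had only 1.85, 4.23 and 3.18 CPM in CD61High and 4.19, 3.66 and 5.40 CPM in CD61Low (blocked log2 fold change -0.58, SE 0.37, adjusted p = 0.415). Tmsb4x had 1233, 4194 and 941 CPM in CD61High and 1875, 8036 and 967 CPM in CD61Low. It was lower in CD61High in each mouse, and its level in mouse 2 was far above that in the others. The blocked estimate of Tmsb4x was -0.53 (SE 0.22, adjusted p = 0.244), and without a block it turned to 0.58 when CD61Low of mouse 2 was left out. With Treml1 and Clec1b, Rab27b completes the 3 of 31 members whose gates did not overlap, beside 14.8% of genes with a mean of at least 1 CPM.

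Sorted by their sign in each mouse, 11 of 31 members (35.5%) were higher in CD61High in 3 of 3 mice, against 20.6% of all genes tested. They were Pf4, Ppbp, Treml1, Rab27b, F2r, F2rl2, Bin2, P2rx1, Lat, Ptgs1 and Tbxa2r, and 8 of the 11 belonged to the late list and 3 to the early list. A further 5 members (16.1%) were lower in 3 of 3 mice, against 24.7% of genes: Clec1b, Sh3bgrl2, Thbs1, Tmsb4x and F5. Another 8 members (25.8%, against 11.1% of genes) were lower in mice 1 and 3 and higher in mouse 2, and 6 of these 8 were early genes: Mmrn1, Angpt1, Pros1, Trpc6, Plek and Timp3, beside the late genes Tbxas1 and Tubb1. Of the 10 LT-HSC markers, Kit and Mecom had the signs of these 8 genes. The log2 ratio of the summed markers was -0.50, 0.38 and -0.41 in mice 1, 2 and 3, but without Kit, which was left out after its level was seen, it was -0.67, -0.28 and -0.82. The part of these markers in the 8 genes was not tested. The opposite signs, higher in mice 1 and 3 and lower in mouse 2, held for F10 and Serpine2 (6.45%, against 14.2% of genes). The median log2 fold change was -0.17 over the 15 early genes and 0.28 over the 14 late genes tested, or -0.08 and 0.29 with the block. Whether the lists differ was not tested, and these sign groups were formed after the values were seen.

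**Figure D4:**
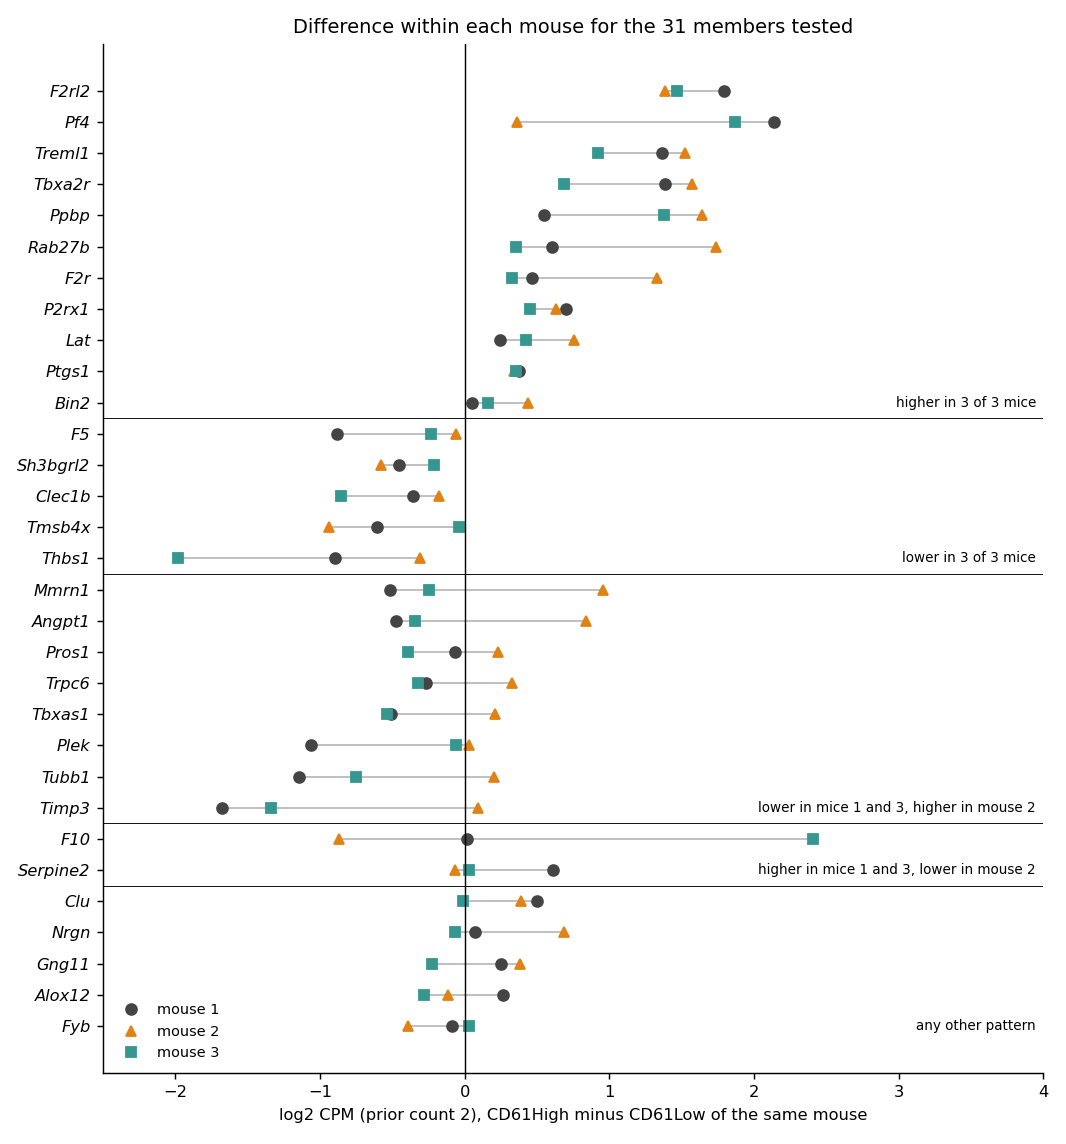
Difference in log2 CPM (prior count 2), CD61High minus CD61Low, within each mouse for the 31 members tested, grouped by the signs in the 3 mice. The 11 genes at the top have 3 points to the right of 0, the next 5 have 3 points to the left, and the next 8 have mouse 2 alone on the right.

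Levels differed between mice as well as between gates. In 12 of 31 members (38.7%, against 26.3% of genes) both libraries of mouse 2 lay below the other 4: Angpt1, Bin2, Clu, F2r, Gng11, Lat, Mmrn1, Nrgn, Pros1, Sh3bgrl2, Tbxas1 and Trpc6. The mean of mouse 2 was 0.396 times that of mice 1 and 3 for Mmrn1 and 0.406 times for Angpt1, beside 0.429 times for the sum of the LT-HSC markers. In 7 members (22.6%, against 24.2% of genes) both libraries of mouse 2 lay above: F10, F5, Plek, Ppbp, Serpine2, Thbs1 and Tmsb4x. Their ratios ran from 1.33 (Plek) to 8.08 (F10), beside 16.7 for neutrophil, 10.5 for monocyte and macrophage and 7.44 for erythroid markers. The erythroid ratio depends on Car2, which held 2903 of 3757 CPM in CD61High of mouse 1 but 3529 of 16690 CPM in CD61High of mouse 2. These marker ratios therefore do not rank the cell types. For Treml1 (1.29), Pf4 (1.54) and F2rl2 (2.32) the libraries of mouse 2 overlapped with the other 4. The part of mature cells in any of these levels was not tested.

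**Figure D5:**
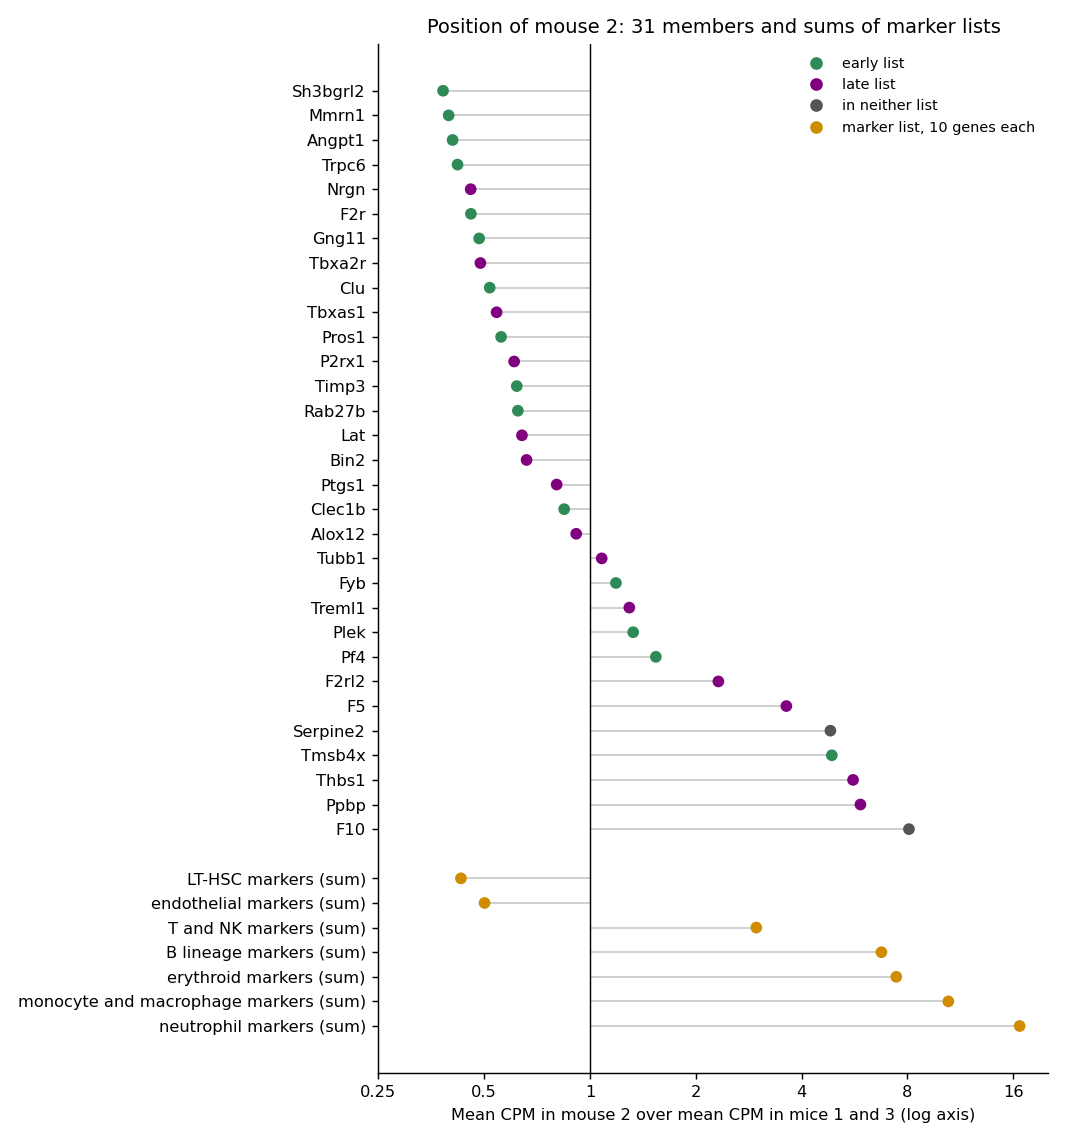
Mean CPM of mouse 2 over the mean CPM of mice 1 and 3, on a log axis, for the 31 members tested (upper block) and for the summed level of each 10-gene marker list (lower block). Sh3bgrl2, Mmrn1 and Angpt1 sit lowest at 0.382 to 0.406, near the LT-HSC markers at 0.429, and Ppbp and F10 highest at 5.88 and 8.08.

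Other megakaryocyte and platelet genes were taken from a list of 82, of which 81 were tested; Gp1bb had 0 to 3 reads per library. Without the block, 0 of 81 were called and their median log2 fold change was -0.07. With the block 3 were called, all higher in CD61High and all surface receptors: Itga2b (integrin alpha IIb, the partner of CD61) at 2.42 (SE 0.17, adjusted p = 0.0308), Gp5 at 1.50 (SE 0.16, adjusted p = 0.0436) and Gp9 at 1.42 (SE 0.16, adjusted p = 0.0436). They passed beside 0.0961% of all genes called higher, and the median of the 81 was -0.03. All 3 were among results already known when the list was drawn up. With the block and library sizes alone in place of TMM, 0 of the 81 were called. Gp1ba, of the same von Willebrand factor receptor as Gp5 and Gp9, had 27.9, 30.7 and 29.5 CPM in CD61High and 15.0, 7.37 and 13.9 CPM in CD61Low (1.34, SE 0.26, adjusted p = 0.0758). Toward CD61Low, the lowest blocked p were those of Fcer1g, the signalling chain of glycoprotein VI and of Fc receptors (-1.28, SE 0.20, adjusted p = 0.0588), Cd36 (-0.92, SE 0.18, adjusted p = 0.0761), Lyst (-0.81, SE 0.18, adjusted p = 0.0868) and Grap2 (-1.69, SE 0.41, adjusted p = 0.0963). All 4 were highest in mouse 2, Fcer1g at 415 CPM in CD61High and 869 CPM in CD61Low, where neutrophil markers were highest too; their part was not tested. Of the 10 megakaryocyte transcription factors 0 were called, with a median of -0.07, or -0.03 with the block. Itgb3 itself had 206, 140 and 227 CPM in CD61High and 294, 129 and 336 CPM in CD61Low, so the message of the sorted protein overlapped between the gates (blocked log2 fold change -0.32, SE 0.17, adjusted p = 0.334).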

How the data were processed

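Counts were deposited per gene and library. The authors used STAR 2.7, per the submitters' processing notes. Their genome build is not given in the sources used here. All 55450 identifiers of the library tables are those of GENCODE M21 (GRCm38), which gave symbols and merged exon lengths. The deposited series table holds 17500 genes (33 of the 34 members), with 0 values unlike those of the single libraries. Unstranded counts were used, since 49.9% to 50.0% of stranded counts were on the first strand; genes that overlap on opposite strands are therefore not separated, and multimapping reads of near-identical copies are left out. Unmapped (4.36% to 10.9%), multimapping (10.0% to 15.6%), no-feature (2.88% to 4.21%) and ambiguous reads (3.55% to 4.37%) stayed out. No 2 libraries agreed within sampling noise (over 15 pairs, chi-square divided by its degrees of freedom was 45.7 or more).

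The main test was edgeR 4.0.16 under R 4.3.3 (robust quasi-likelihood F-test, TMM, filterByExpr by group, two-sided, Benjamini-Hochberg over the 15610 genes kept), without a block, and DESeq2 1.42.0 was an alternative. Standard errors come from the F statistic. Levels are TMM-adjusted CPM, and log2 CPM carry a prior count of 2. The mouse numbers of the titles pair the libraries as 1 animal each. Deviations from the group means correlated at 0.236, 0.806 and 0.761 within mice 1, 2 and 3, against -0.823 to 0.374 between mice. CD61High of mouse 1 correlated more with CD61Low of mouse 3 (0.374) than with its own partner (0.236), so these values do not bear out the pairing of mouse 1. Members, lists and tests were chosen with earlier results of these data known. All 34 members were named; values of every library were due for members called or with gates that did not overlap, and those given for other members were chosen after their values were seen. Of the other 82 genes, those called with the block and the 4 per direction with the lowest blocked p were named, and Itgb3 as the sorted marker. Promoter windows come from RefSeq. Alternatives were other scalings, no filter, the block, DESeq2, and leaving out each library or mouse.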

Additional observations from a re-analysis of the deposited data

How the results depend on the processing

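With the mouse as a replicate block, edgeR called 40 genes over all genes against 0 without it, 88 with the block and relative log expression factors, and 237 and 1566 were called by DESeq2 without and with the block. For the members, edgeR called 0 with and without the block, and DESeq2 called 1 without and 10 with it. For the other megakaryocyte and platelet genes the block called 3 against 0 without it, also 3 with the block and relative log expression factors, and DESeq2 called 5 without and 16 with the block. With the block and library sizes alone, edgeR called 0 of all genes, 0 members and 0 of these other genes. Leaving out single libraries or mice, with or without the block, gave 0 to 742 genes (133 without mouse 2 and no block, 742 without mouse 2 with the block, 7 without mouse 3 with the block), 0 to 3 members and 0 to 8 other genes (2 without mouse 2 and no block, 8 without mouse 2 and 1 without mouse 3 with the block). Of the 31 members tested, 15 kept the sign of their log2 fold change in all 20 alternatives, among them Pf4, Treml1, F2rl2, Tbxa2r, P2rx1, Rab27b and Timp3. The other 16 changed sign in at least 1, and for Ppbp that was -0.13 without CD61High of mouse 2 and without a block. Of 620 values, 60 changed sign, none of them in a call. Counted without length, 32 members had a mean of at least 1 CPM, against 31 at 1 CPM per kb. The cause of these differences was not tested. Counting error limits Slc6a4, Gp6 and P2ry12 outside mouse 2, where 0 to 10 reads were counted.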
